A study of Mus musculus with 12 samples.

Results

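Imprinted genes are expressed mainly from the copy inherited from a single parent, and 40 such mouse genes were listed for description by their clusters. A listed gene was kept where the array had a probe set assigned to that gene alone, and 33 of the 40 were measured, among 19938 genes in all. Of these, 25 lie in 8 clusters and 8 stand alone in the list. H19, Slc22a3 and Kcnq1ot1 are not analysed here, and neither are Mirg, Snrpn, Ube3a and Gnas, whose probe sets carry several gene names.

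RNA of mouse cells was measured on 12 whole-transcript arrays, 3 in each of 4 groups. WT_EC were wild-type lung endothelial cells of strain C57Bl/6, and null_EC were lung endothelial cells of the same strain labelled CD47 null, that is, without the surface receptor of thrombospondin-1 and SIRP alpha. Both were grown in endothelial growth medium. The null_EB group were embryoid bodies, aggregates seen 24 to 36 h after a culture of the null_EC kind, kept in passage over 6 months, was moved to basal medium lacking serum. ESC was V6.5, a single established mouse embryonic stem cell line, grown in 15% fetal bovine serum with 1000 IU/ml of LIF, a factor that maintains self-renewal. Its strain is not given in the labels, and medium, serum and growth form changed along with the group. The age of the animals and the number of animals or cultures behind each group are not given in the sources used here. P-values therefore measure the spread between these samples, which may be technical. The study asked how CD47 null cells differ in expression from wild-type endothelial cells, from their own embryoid bodies and from an embryonic stem cell line.

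In imprinting, DNA methylation laid down in the egg or sperm at a control region lets the cell tell the parental copies apart, and proteins such as Zfp57 and Dnmt1 keep that mark through cell division. Many imprinted genes act on fetal growth, with paternally expressed Igf2 a growth factor and maternally expressed Igf2r the receptor that clears it. Many are active in the embryo and placenta and fall in adult tissues. An array signal sums both parental copies, so neither the parental origin of a transcript nor methylation was measured here, and a difference in signal says nothing of whether imprinting held.

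All values are log2 signals. They are given in the order of replicates 1, 2 and 3. A group's value is its mean ± SD (n = 3), and differences carry standard errors (SE) and adjusted p-values from limma. A gene was called where the adjusted p was below 0.05. The comparisons share arrays, so a count in one is not independent of a count in another. Levels of different genes are not compared, because probe sets bind with different strength. A bulk signal cannot tell fewer expressing cells from less RNA per cell.

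The WT_EC arrays stood apart from each other, which touches every result that uses them. For the imprinted genes, the SD within WT_EC had a median of 0.394, against 0.0774 to 0.0802 within the other groups. Over all genes the medians were 0.213 and 0.0652 to 0.0847. The targeted gene Cd47 read 12.59, 11.29 and 12.48 in WT_EC, 10.98, 11.11 and 11.02 in null_EC and 10.99, 10.89 and 10.93 in null_EB, so the CD47 null arrays lay below every WT_EC array, though by little against WT_EC 2 and with no fall to the low end of the signal. ESC, not labelled CD47 null, read 11.23, 10.96 and 11.33 and overlapped null_EC (difference 0.14, adjusted p = 0.69 in limma). The Cd47 signal thus did not set the CD47 null groups apart from ESC. The 10 embryonic stem cell markers were all called higher in ESC than in each other group. Of the 14 endothelial markers, Cdh5 (VE-cadherin) read 9.10, 6.85 and 9.52 in WT_EC but 7.09 to 7.27 in null_EC, and Pecam1 read 6.46 to 7.56 across both groups, below its 8.84 to 8.87 in ESC. Kdr, the main VEGF receptor, ran the other way, with 8.51, 8.61 and 9.35 in WT_EC, 10.83, 10.74 and 10.52 in null_EC and 7.26 to 7.40 in null_EB. In null_EC against WT_EC, Kdr was called higher (1.88), Flt1 lower (-1.42) and the other 12 not. The medians of the 14 were 7.59, 6.94 and 8.02 in WT_EC and 7.02 to 7.31 in the other groups. The medians of 10 mesothelium markers were 10.23 to 11.35 in WT_EC, 11.51 to 11.59 in null_EC, 10.47 to 10.78 in null_EB and 7.79 to 7.84 in ESC. The medians of 10 immune markers were 7.37, 6.55 and 8.97 in WT_EC and 6.51 to 6.71 in the other groups, with Lyz2, a macrophage gene, at 9.05, 5.44 and 12.31 on the WT_EC arrays. The medians of 9 fibroblast markers were 10.27, 11.27 and 11.73 in WT_EC, 10.17 to 10.65 in null_EC, 9.76 to 9.92 in null_EB and 9.13 to 9.24 in ESC. What part these other cell types had in the results was not tested.

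**Figure D1:**
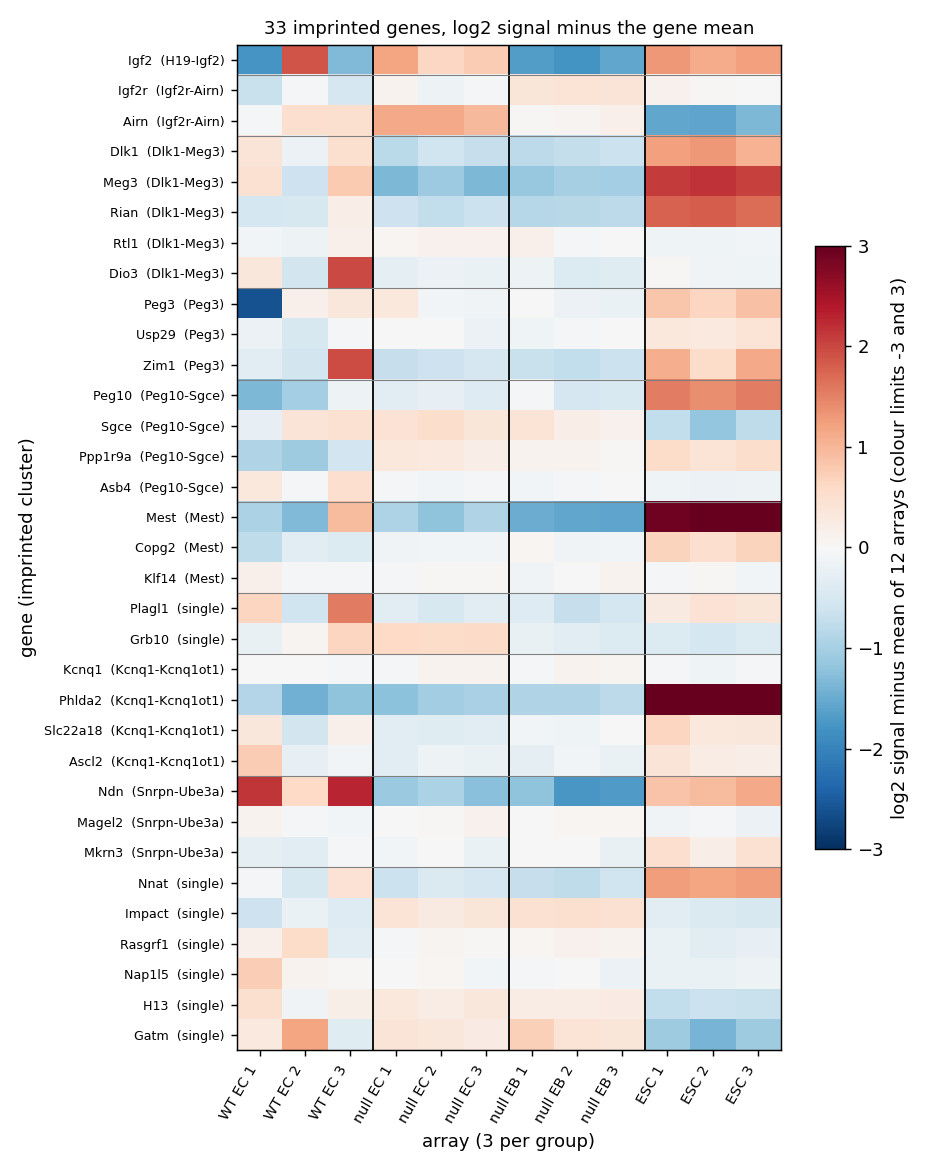
Signal of the 33 imprinted genes (rows, by cluster) on the 12 arrays (columns, 3 per group), as log2 signal minus the gene's mean over all arrays, with red above and blue below that mean. Mest and Phlda2 are the deepest red on the ESC arrays, the null groups are alike within themselves, and the WT_EC arrays differ from each other in Igf2, Peg3, Zim1, Dio3 and Mest.

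Between null_EC and WT_EC, 4 of the 33 imprinted genes were called higher and 3 lower, where 8.12% of all genes were called higher and 5% lower. Between null_EB and null_EC, 0 were called higher and 2 lower, against 2.9% and 2.5% of all genes. At an unadjusted p under 0.05 in limma, 1 imprinted gene was higher (Igf2r) and 3 were lower (Airn, Grb10 and Igf2) in null_EB. The embryonic stem cells differed most. ESC had 13 called higher and 6 lower than null_EC, where 22.9% and 25.1% of all genes were called. Against null_EB, 15 were higher and 5 lower, beside 21.8% and 23% of all genes. Against WT_EC, 12 were higher and 7 lower, beside 25.4% and 21.7% of all genes. The median difference of the 33 genes was 0.36, 0.41 and 0.12 in these comparisons with ESC, in that order, where the median of all genes was -0.09, -0.08 and -0.07. It was 0.06 in null_EC against WT_EC and -0.02 in null_EB against null_EC, beside 0.03 and -0.01 for all genes.

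The split of higher against lower depended on the scaling. When arrays were shifted to equal medians of 12 housekeeping genes, the median difference of all genes moved by -0.18 for null_EC less WT_EC, by 0.11 for null_EB less null_EC, and by -0.20, -0.31 and -0.38 for ESC less null_EC, null_EB and WT_EC. The imprinted genes called higher and lower were then 2 and 4, 0 and 1, 10 and 11, 9 and 13, and 9 and 14 in the same order. Of all genes, 2.17% were then called higher and 7.46% lower, 4.03% and 1.10%, 16.4% and 43.7%, 13.5% and 56.1%, and 13.9% and 60.4%. Usp29 and Mkrn3 lost their calls in all comparisons with ESC under this shift, Zim1 lost both of its calls, and Copg2, Ppp1r9a and Slc22a18 lost theirs against null_EB. Rtl1, Kcnq1, Magel2 and Rasgrf1, called in no comparison of the main fit, were called lower in ESC in all 3. Klf14 was called lower in those with null_EB and WT_EC, whereas Mest, Phlda2, Meg3, Rian, Dlk1, Peg10 and Nnat kept their calls. Differences of at least 2-fold were called in 39.4% of the imprinted genes for ESC against null_EC and again against null_EB, and in 33.3% against WT_EC, beside 16.5%, 15% and 15.7% of all genes.

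Among the 33 genes, Mest and Phlda2 had the largest differences between ESC and each other group. Mest, a paternally expressed hydrolase of embryonic mesoderm, read 10.52, 10.67 and 10.59 in ESC, 6.69, 6.41 and 6.70 in null_EC, 6.13, 6.04 and 6.01 in null_EB, and 6.64, 6.29 and 8.56 in WT_EC. Every ESC array lay far above every other array, and WT_EC 3 lay above the rest. The ESC level was 15.9-fold that of null_EC (log2 difference 3.99, SE 0.44, adjusted p = 1.95e-05), 23.2-fold that of null_EB (4.53, adjusted p = 8.15e-06) and 10.8-fold that of WT_EC (3.43, adjusted p = 7.17e-05). Phlda2, a maternally expressed protein that limits placental growth, read 11.42, 11.54 and 11.41 in ESC, 7.09, 7.28 and 7.36 in null_EC, 7.43, 7.42 and 7.53 in null_EB, and 7.44, 6.87 and 7.11 in WT_EC. Its ESC arrays stood apart, and unlike those of Mest its WT_EC arrays stayed close to the null groups. Phlda2 was 18.5-fold higher in ESC than in null_EC (log2 difference 4.21, SE 0.13, adjusted p = 1.06e-09), 16.0-fold higher than in null_EB (4.0, adjusted p = 1.65e-09) and 19.9-fold higher than in WT_EC (4.32, adjusted p = 1.05e-09).

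To show what lies in front of these genes, the 250 bases before a start of Mest (chr6:30737800-30738049 on the plus strand) and before that of Phlda2 (chr7:143502525-143502774 on the minus strand) are printed from RefSeq's table of assembly GRCm38.p6, 5′ to 3′ in the direction of the gene, with CG pairs, the bases that can carry the methylation mark, in capitals. Where a gene had several annotated starts, as Mest has 3, a window with the most CG pairs was taken, here and over all genes.
Mest: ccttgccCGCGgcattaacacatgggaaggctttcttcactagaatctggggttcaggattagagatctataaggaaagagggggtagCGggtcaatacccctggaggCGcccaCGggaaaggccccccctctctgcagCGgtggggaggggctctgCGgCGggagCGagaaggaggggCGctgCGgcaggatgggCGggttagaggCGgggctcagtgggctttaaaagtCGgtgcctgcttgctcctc
Phlda2: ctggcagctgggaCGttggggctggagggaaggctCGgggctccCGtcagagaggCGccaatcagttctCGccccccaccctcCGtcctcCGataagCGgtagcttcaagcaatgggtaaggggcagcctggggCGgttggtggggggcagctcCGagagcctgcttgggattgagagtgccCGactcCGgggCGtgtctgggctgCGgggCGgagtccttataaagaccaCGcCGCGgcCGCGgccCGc
The Mest window holds 14 CG pairs and the Phlda2 window 21. The motif TGCCGC, read on either strand and known as the core bound by Zfp57 when methylated, occurs 2 times in the Mest window and 0 times in that of Phlda2. Of the 33 genes, 27 had such a window, with a median of 14 CG pairs against 6 over the 27025 genes of the table. TGCCGC stood in 6 of the 27 (22.2%) and in 9.15% of all genes' windows. Also read on either strand, the GC box GGGCGG stood in 16 (59.3%) against 34.4% of all, and TATAAA in 6 (22.2%) against 12.5%. These are counts of letters in a short window, which often lies outside the imprinting control region. TGCCGC and GGGCGG each hold a CG pair, and the windows compared were not matched in number of CG pairs. What part that number had in these shares was not tested. The 27025 genes were also not limited to those measured on the array.

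Copg2 and Klf14 neighbour Mest. Copg2, a coat protein of transport vesicles, read 11.39, 11.22 and 11.39 in ESC, 10.62, 10.65 and 10.64 in null_EC, 10.78, 10.61 and 10.64 in null_EB, and 9.95, 10.41 and 10.31 in WT_EC. ESC was again above all other arrays, by 0.70 on the log2 scale against null_EC (adjusted p = 0.000315), 0.66 against null_EB (adjusted p = 0.000537; 0.35 with an adjusted p of 0.066 under the housekeeping shift) and 1.11 against WT_EC (adjusted p = 1.06e-05). Its call in null_EC against WT_EC (0.41, adjusted p = 0.0336) was lost under 7 of 13 alternatives, among them leaving out any of the 3 null_EC arrays (adjusted p up to 0.10). Klf14, a transcription factor, had group means of 8.69 to 8.74 and was not called.

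In the Kcnq1 cluster, where Kcnq1ot1 is known to silence neighbours on the paternal copy, the other genes moved less than Phlda2. Slc22a18, a transporter-like protein, had means of 8.65 ± 0.181 in ESC, 7.87 ± 0.0115 in null_EC, 8.14 ± 0.0473 in null_EB and 8.19 ± 0.467 in WT_EC. It was called higher in ESC than in null_EC (0.78, adjusted p = 0.00482). Its call against null_EB (0.51, adjusted p = 0.0436) was lost when any of those 6 arrays was left out, with adjusted p between 0.063 and 0.15. Ascl2, a factor of trophoblast, ranged over group means of 6.66 to 7.15, and Kcnq1, a potassium channel subunit, over 7.17 to 7.31. No comparison called either in the fit of all 12 arrays. When the WT_EC arrays were left out, ESC exceeded null_EC in Ascl2 by 0.49 (adjusted p = 4.9e-05 in limma) and null_EB by 0.46 (adjusted p = 9.7e-05).

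The Dlk1-Meg3 cluster of chromosome 12 held further large differences, in 3 of its 5 measured genes: the non-coding Meg3 and Rian, both maternally expressed, and Dlk1, paternally expressed. Meg3, a maternally expressed long non-coding RNA, read 11.10, 11.19 and 11.06 in ESC, 9.47, 8.40 and 9.81 in WT_EC, 7.66, 7.91 and 7.67 in null_EC and 7.88, 8.02 and 8.0 in null_EB. The groups formed 3 levels without overlap, ESC above WT_EC and WT_EC above both null groups, which overlapped each other. Meg3 was 10.3-fold higher in ESC than in null_EC (log2 difference 3.37, SE 0.27, adjusted p = 1.7e-06), 8.87-fold higher than in null_EB (3.15, adjusted p = 3.28e-06) and 3.71-fold higher than in WT_EC (1.89, adjusted p = 0.00017). Against WT_EC, null_EC was lower by a factor of 2.78 (-1.47, adjusted p = 0.00505). With the arrays of this pair alone the adjusted p was 0.098.

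Dlk1, a paternally expressed transmembrane protein related to Notch ligands, showed the same order of groups. It read 10.21, 10.27 and 10.02 in ESC, 9.36, 8.79 and 9.44 in WT_EC, 8.17, 8.38 and 8.29 in null_EC and 8.18, 8.26 and 8.33 in null_EB. ESC exceeded null_EC by 1.89 (adjusted p = 1.55e-06), null_EB by 1.91 (adjusted p = 1.58e-06) and WT_EC by 0.97 (adjusted p = 0.0003). Dlk1 fell by 0.92 in null_EC against WT_EC (adjusted p = 0.00255; 0.064 with the 6 arrays alone). Rian, the host RNA of small nucleolar RNAs, read 8.45, 8.48 and 8.36 in ESC, 6.16, 6.20 and 6.87 in WT_EC, 6.05, 5.94 and 6.03 in null_EC and 5.83, 5.84 and 5.88 in null_EB. ESC exceeded null_EC by 2.42 (adjusted p = 2.54e-07), null_EB by 2.58 and WT_EC by 2.02. Rtl1, a retrotransposon-derived gene of the placenta, kept group means of 7.07 to 7.28. Dio3, which inactivates thyroid hormone, had means of 6.55 to 7.45 with a single high array, 8.83 on WT_EC 3. Neither was called in any comparison in the fit of all arrays. Without the WT_EC arrays, limma called Rtl1 lower in ESC than in null_EC (-0.21, adjusted p = 0.013). It then called Dio3 higher in ESC than in null_EB (0.24, adjusted p = 0.014).

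**Figure D2:**
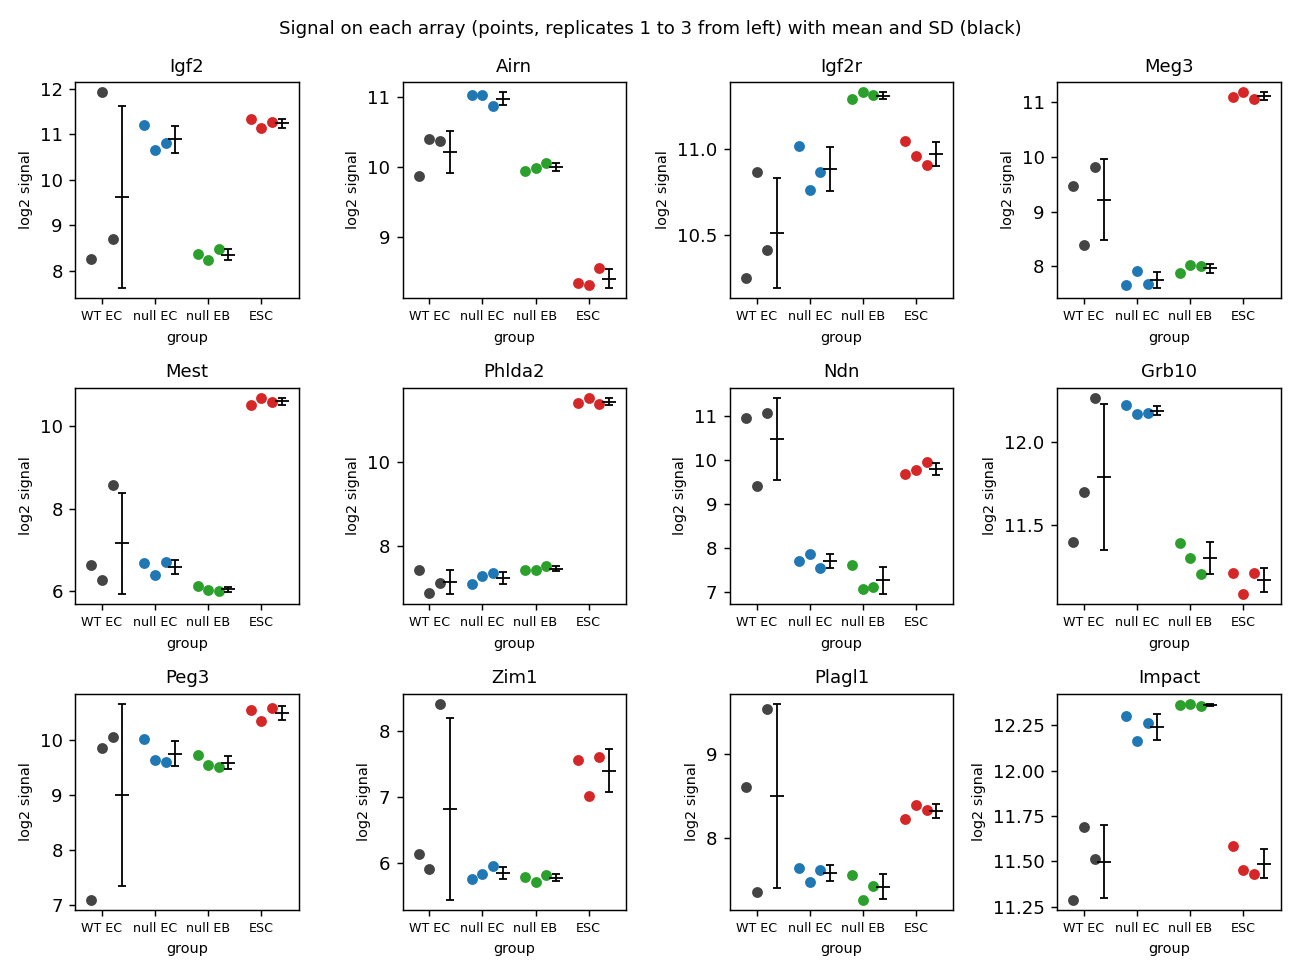
Log2 signal of 12 imprinted genes on each array (coloured points, replicates 1 to 3 from left within a group) with the group mean and SD (black bar), each panel on its own scale. Igf2 is high on all ESC and null_EC arrays and on WT_EC 2 alone of its group, Airn is lowest in ESC, and Mest and Phlda2 are high in ESC.

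Many microRNA and small nucleolar RNA genes lie between Dlk1 and Dio3, and they were examined after the values of Meg3 and Rian had been seen. RefSeq lists 101 genes in between, of which 80 are microRNA or small nucleolar RNA genes, and 43 of these were measured (40 microRNA and 3 small nucleolar RNA genes). A probe set here does not tell a precursor from its mature arms or from a longer host RNA. Genes that share a host RNA are not independent, so the counts below may repeat a shared signal. ESC had 33 of the 43 called higher and 0 lower than null_EC, 35 higher and 0 lower than null_EB, and 32 higher and 1 lower than WT_EC, the last being Mir299a. Of all genes, 22.9% were called higher and 25.1% lower, 21.8% and 23%, and 25.4% and 21.7% in the same order. With the housekeeping shift the counts of the 43 became 26 and 1, 24 and 3, and 18 and 5. The shares of all genes were then 16.4% and 43.7%, 13.5% and 56.1%, and 13.9% and 60.4%. The median differences were 0.84, 0.82 and 0.61, where those of all genes were slightly below 0 as given above. Between null_EB and null_EC, limma called 0 of 43, and 0 reached p under 0.05 before adjustment, where 2.9% of all genes were called higher and 2.5% lower. Between null_EC and WT_EC 0 were higher and 3 lower (0 and 13 at an unadjusted p under 0.05), beside 8.12% and 5% of all genes called. The 3 were the small nucleolar RNA gene DQ267102 (-1.43, adjusted p = 0.00039), Mir382 (-0.74, adjusted p = 0.00432) and Mir377 (-0.49, adjusted p = 0.0397). WT_EC 1 and WT_EC 3 lay above every null array in 30 of 43 genes each (69.8%), and WT_EC 2 in 14 (32.6%), where over all genes the shares were 34%, 23.1% and 19.6% for WT_EC 1, 3 and 2.

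The largest differences were in DQ267102 and Mir382. DQ267102 read 12.04, 12.18 and 11.78 in ESC, 9.26, 8.58 and 9.28 in WT_EC, 7.65, 7.71 and 7.46 in null_EC and 7.51, 7.46 and 7.48 in null_EB, in the same 3 levels as Meg3, and it was 21.0-fold higher in ESC than in null_EC. Mir382 read 8.10, 8.19 and 8.22 in ESC, 5.33, 4.89 and 5.5 in WT_EC, 4.49, 4.59 and 4.41 in null_EC and 4.33, 4.24 and 4.44 in null_EB. Its log2 difference of ESC from null_EC was 3.68 (adjusted p = 3.7e-09). Mir380, Mir377, Mir300 and Mir323 followed at 2.67, 2.58, 2.37 and 1.81. These 5 read under 6 on all arrays but those of ESC, and no detection calls were used, so no fold is given. The mature arms of these 5 microRNA genes, all on the plus strand of chromosome 12 between chr12:109711806-109711827 (miR-380-5p) and chr12:109740553-109740574 (miR-377-3p) of GRCm38.p6, are printed from RefSeq with the seed, bases 2 to 8, in capitals, since the seed decides which messenger RNAs a microRNA pairs with.
mmu-miR-382-5p: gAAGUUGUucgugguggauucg
mmu-miR-382-3p: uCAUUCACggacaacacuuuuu
mmu-miR-380-5p: aUGGUUGAccauagaacaugcg
mmu-miR-380-3p: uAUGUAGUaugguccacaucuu
mmu-miR-377-5p: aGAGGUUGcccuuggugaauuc
mmu-miR-377-3p: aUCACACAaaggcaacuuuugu
mmu-miR-300-5p: uUGAAGAGagguuauccuuugu
mmu-miR-300-3p: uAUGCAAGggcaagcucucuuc
mmu-miR-323-5p: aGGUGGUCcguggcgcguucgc
mmu-miR-323-3p: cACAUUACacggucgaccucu
No seed occurs in 2 of these 10 arms, so each arm falls into a seed group of its own. Among the other microRNAs of the interval whose genes were measured, miR-379-3p shares its seed with miR-411-3p, and miR-376c-5p with miR-376b-5p. Those not measured were not compared.

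**Figure D3:**
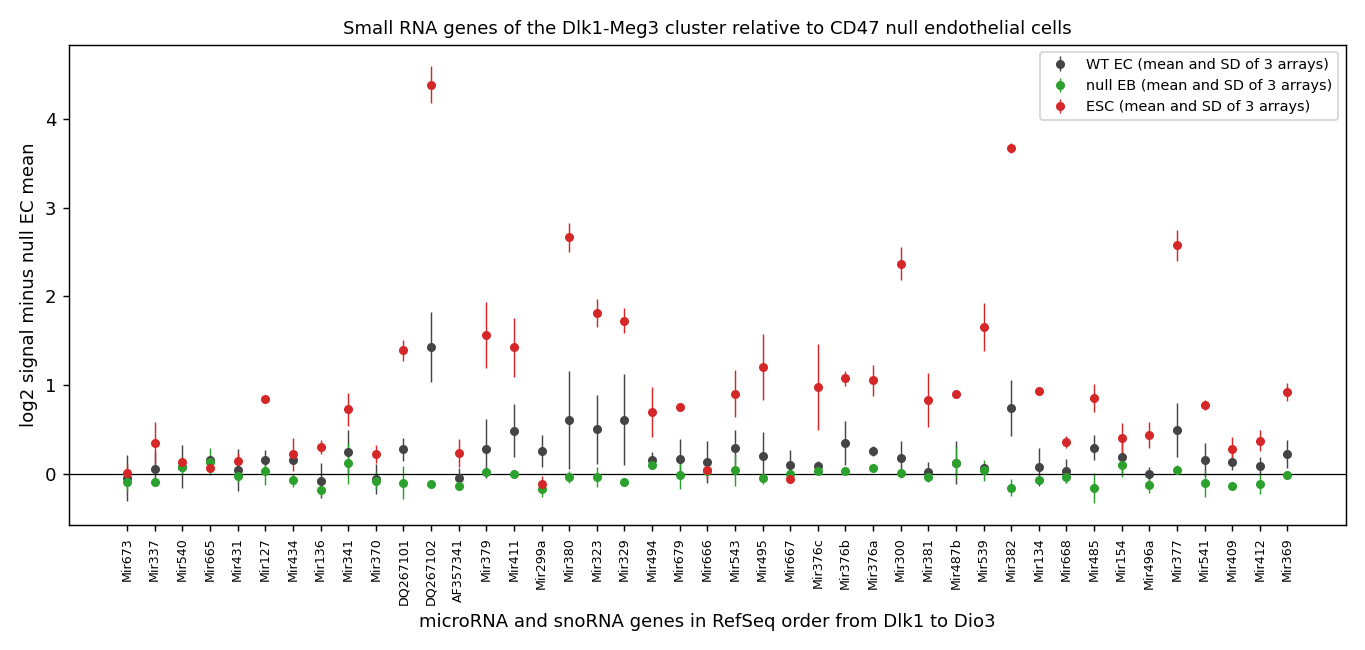
Mean log2 signal minus the null_EC mean for the 43 measured microRNA and small nucleolar RNA genes between Dlk1 and Dio3, in RefSeq order, with the SD of 3 arrays as bars. ESC (red) lies above 0 for most genes, WT_EC (grey) in between for DQ267102, Mir382 and Mir377, and null_EB (green) near 0.

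The window before the first of 2 annotated starts of Meg3 (chr12:109540746-109540995 on the plus strand, GRCm38.p6) is shown because Meg3 had the largest difference of the cluster's 5 measured genes in ESC against null_EC, with CG pairs in capitals.
Meg3: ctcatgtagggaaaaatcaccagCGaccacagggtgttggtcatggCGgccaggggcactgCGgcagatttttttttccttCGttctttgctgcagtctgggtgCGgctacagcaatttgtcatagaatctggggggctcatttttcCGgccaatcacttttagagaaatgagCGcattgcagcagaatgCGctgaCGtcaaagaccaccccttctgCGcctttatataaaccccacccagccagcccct
It holds 10 CG pairs and, read on either strand, TGCCGC 1 time and TATAAA 2 times. The 2 TATAAA matches lie on opposite strands of a single stretch and overlap.

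Igf2 varied over a wide range, the widest within WT_EC of the 33 genes. It read 11.21, 10.65 and 10.80 in null_EC, 8.36, 8.23 and 8.47 in null_EB, 11.33, 11.13 and 11.26 in ESC, and 8.25, 11.92 and 8.69 in WT_EC. Every null_EB array lay more than 2 log2 units below every null_EC array, and the highest and the second lowest values of the series both came from WT_EC. The difference of null_EB from null_EC was -2.53 (5.78-fold), with an SE of 0.72 and an adjusted p of 0.0721, so it was not called. The SE is pooled over all groups and holds the spread of WT_EC. With the 6 arrays of that comparison alone the adjusted p was 5.76e-07, with array weights 9.57e-08, and without the WT_EC arrays, a fit added after the values were seen, 1.52e-08. Across all alternatives the difference ranged from -2.65 to -2.37 and the adjusted p from 1.52e-08 to 0.22. ESC was 7.40-fold higher than null_EB (2.89, adjusted p = 0.00676) and differed from null_EC by 0.36 (adjusted p = 0.708). The difference of null_EC from WT_EC was 1.26 (SE 0.72, adjusted p = 0.307), and 2.41 without WT_EC 2 (adjusted p = 7.14e-06).

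Igf2r, the receptor that clears Igf2, and Airn, the non-coding RNA that starts inside Igf2r on the other strand and silences it on the paternal copy, were both measured. Airn read 11.03, 11.03 and 10.87 in null_EC, 9.94, 9.99 and 10.06 in null_EB, 8.33, 8.31 and 8.56 in ESC, and 9.86, 10.40 and 10.37 in WT_EC. null_EC was above and ESC below every array of the other groups. Airn was called higher in null_EC than in WT_EC (0.77, SE 0.13, adjusted p = 0.0037), lower in null_EB than in null_EC (-0.98, adjusted p = 0.00232) and lower in ESC than in null_EC (-2.58, adjusted p = 5.16e-08), null_EB (-1.59, adjusted p = 2.64e-06) and WT_EC (-1.81, adjusted p = 1.03e-06). The first of these calls did not pass in a fit of its own 6 arrays (adjusted p = 0.073) or with the housekeeping shift (0.59, adjusted p = 0.071).

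Igf2r had narrower means, 11.31 ± 0.0201 in null_EB, 10.97 ± 0.0718 in ESC, 10.88 ± 0.129 in null_EC and 10.51 ± 0.320 in WT_EC. Every null_EB array lay above every array of the other groups, while ESC and null_EC overlapped. The difference of null_EB from null_EC was 0.43 (SE 0.14) with an adjusted p of 0.106, and 0.00057 without the WT_EC arrays. Only ESC against WT_EC was called (0.46, adjusted p = 0.016), and that call was lost with the housekeeping shift (0.08, adjusted p = 0.64), with the 6 arrays alone (adjusted p = 0.087) and without ESC 1 (0.42, adjusted p = 0.057). The windows before the starts of Igf2r (chr17:12769707-12769956 on the minus strand) and Airn (chr17:12741061-12741310 on the plus strand), both in GRCm38.p6, are shown to compare the overlapping pair, with CG pairs in capitals.
Igf2r: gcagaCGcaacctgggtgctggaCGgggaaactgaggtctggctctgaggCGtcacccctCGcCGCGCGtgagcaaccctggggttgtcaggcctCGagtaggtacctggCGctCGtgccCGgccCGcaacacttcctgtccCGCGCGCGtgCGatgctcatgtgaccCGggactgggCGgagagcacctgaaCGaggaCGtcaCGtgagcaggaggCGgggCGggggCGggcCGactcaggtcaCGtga
Airn: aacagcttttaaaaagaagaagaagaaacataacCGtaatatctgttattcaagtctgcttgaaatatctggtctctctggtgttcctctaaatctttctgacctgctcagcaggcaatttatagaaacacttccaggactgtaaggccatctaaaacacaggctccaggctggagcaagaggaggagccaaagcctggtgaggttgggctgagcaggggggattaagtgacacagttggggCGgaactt
The Igf2r window holds 27 CG pairs, as many or more than which stand in 9.5% of all genes' windows, and the Airn window 2. TGCCGC is in neither window.

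Grb10, an adaptor that restrains insulin and IGF receptor signalling, fell in the embryoid bodies along with Airn. It read 12.22, 12.17 and 12.18 in null_EC, 11.39, 11.30 and 11.21 in null_EB, 11.21, 11.09 and 11.21 in ESC, and 11.40, 11.70 and 12.27 in WT_EC. The null_EC arrays lay above all null_EB and ESC arrays, which overlapped, and WT_EC spread over both levels. The difference of null_EB from null_EC was -0.89 (SE 0.17, adjusted p = 0.0131), and the call was lost when any array of the pair but null_EB 1 was left out (adjusted p 0.054 to 0.068). ESC was lower than null_EC by 1.02 (log2 difference -1.02, adjusted p = 0.000444) and differed from null_EB by -0.13 (adjusted p = 0.556).

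In a list of 15 other genes of Igf2 binding and signalling, null_EC against WT_EC had 2 higher and 2 lower, and null_EB against null_EC 1 higher and 2 lower. As shares these are 13.3% and 13.3%, and 6.67% and 13.3%, beside 8.12% and 5%, and 2.9% and 2.5% of all genes. Igfbp3, a circulating carrier of IGFs, read 11.19, 10.64 and 10.43 in WT_EC, 12.69, 12.71 and 12.72 in null_EC, 11.25, 10.67 and 10.60 in null_EB and 9.72, 9.75 and 9.55 in ESC. It was thus highest in null_EC, as Airn was, by 1.95 against WT_EC (adjusted p = 0.00013) and with a difference of -1.87 in null_EB against null_EC (adjusted p = 0.00051). Igf1r, the signalling receptor, differed by -0.32 in null_EC against WT_EC (adjusted p = 0.0094) and by 0.47 in null_EB against null_EC (adjusted p = 0.0027). Igf1 differed by -1.99 in null_EC against WT_EC (adjusted p = 0.019), with 9.26, 8.0 and 10.56 on the WT_EC arrays, the highest on WT_EC 3. In ESC against null_EC 5 were higher and 7 lower (33.3% and 46.7%, beside 22.9% and 25.1% of all genes). With the housekeeping shift the counts for null_EC against WT_EC were 1 and 3, and for null_EB against null_EC 1 and 1. Of all genes, 2.17% and 7.46%, and 4.03% and 1.10% were then called. In ESC less null_EC, Igf2bp3, which binds Igf2 messenger RNA, was 4.44 higher, Igfbp2 3.66, Lin28b 3.37 and Igf2bp1 2.51, while Igfbp6 differed by -2.73 and Igfbp4 by -2.15.

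Ndn, a paternally expressed protein of the Snrpn-Ube3a cluster, showed the largest difference of an imprinted gene between null_EC and WT_EC. It read 10.94, 9.40 and 11.08 in WT_EC, 7.69, 7.85 and 7.54 in null_EC, 7.61, 7.05 and 7.10 in null_EB and 9.67, 9.76 and 9.94 in ESC. The WT_EC arrays all lay far above both null groups and on both sides of ESC. The null_EC level was 6.87-fold below that of WT_EC (-2.78 on the log2 scale, SE 0.36, adjusted p = 0.000574), and ESC exceeded null_EC by 2.10 (adjusted p = 0.00053) and null_EB by 2.54 (adjusted p = 0.000144). Of 9 fibroblast markers, 4 (44.4%) were called lower in null_EC than in WT_EC and 0 higher, beside 5% and 8.12% of all genes. The medians of the 9 were 10.27, 11.27 and 11.73 in WT_EC, but the markers did not share an order there. Col1a1, Col1a2, Col3a1, Pdgfra, Pdgfrb and Lum were lowest on WT_EC 1. Dpt, Thy1 and Fap were lowest on WT_EC 2 and highest on WT_EC 3, as Ndn was. In ESC against null_EC, where Ndn was higher, 1 of the 9 was called higher and 4 lower, beside 22.9% and 25.1% of all genes. Their part in the Ndn result was not tested. Mkrn3, a makorin ring finger gene of the cluster, had means of 6.59 in ESC and 5.98 to 6.12 elsewhere and was called higher in ESC, by 0.46 to 0.60. Magel2, a relative of Ndn, stayed at means of 7.10 to 7.26 and was not called in the pooled fit. Without the WT_EC arrays it differed by -0.16 in ESC against null_EC (adjusted p = 0.037 in limma) and against null_EB (adjusted p = 0.042).

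In the Peg3 cluster, Peg3 and Zim1 each had a single WT_EC array apart from the other 2. Peg3, a zinc finger protein, read 7.10, 9.86 and 10.06 in WT_EC, 10.02, 9.64 and 9.61 in null_EC, 9.73, 9.55 and 9.52 in null_EB and 10.55, 10.36 and 10.59 in ESC. WT_EC 1 was the only array below 9, and ESC lay above all others. No comparison called Peg3 in the pooled fit, but ESC exceeded null_EC by 0.74 with an adjusted p of 3.5e-05 and null_EB by 0.90 with 5.6e-06 when the WT_EC arrays were left out. Zim1, a maternally expressed zinc finger gene, read 6.14, 5.91 and 8.41 in WT_EC, 5.76, 5.84 and 5.94 in null_EC, 5.79, 5.72 and 5.82 in null_EB and 7.56, 7.02 and 7.61 in ESC, so WT_EC 3 held the highest value. It was called higher in ESC than in null_EC (1.55, adjusted p = 0.026) and null_EB (1.62, adjusted p = 0.0223). These calls were lost when any array of the pair but ESC 2 was left out (adjusted p 0.056 to 0.078 and 0.053 to 0.070). Usp29, a ubiquitin protease that shares a promoter region with Peg3, had means of 6.27 in ESC and 5.68 to 5.87 elsewhere, a difference of 0.40 from null_EC (adjusted p = 0.00973). The windows of Peg3 and Usp29 overlap by 163 bases on opposite strands.

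In the Peg10-Sgce cluster the neighbours went opposite ways in ESC. Peg10, a retrotransposon-derived gene needed for the placenta, read 11.64, 11.50 and 11.64 in ESC, 9.79, 9.86 and 9.73 in null_EC, 10.04, 9.61 and 9.66 in null_EB and 8.76, 9.09 and 9.96 in WT_EC. Sgce, epsilon-sarcoglycan, starts beside it and read 10.49, 10.07 and 10.48 in ESC, 11.66, 11.76 and 11.59 in null_EC, 11.65, 11.42 and 11.35 in null_EB and 10.98, 11.63 and 11.69 in WT_EC. ESC was above all other arrays for Peg10 and below all for Sgce. The difference of ESC from null_EC was 1.80 for Peg10 (SE 0.24, adjusted p = 9.57e-05) and -1.33 for Sgce (SE 0.18, adjusted p = 0.000109). Against null_EB the differences were 1.82 and -1.13, and against WT_EC 2.32 and -1.09, all called.

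Ppp1r9a (neurabin, which binds actin) read 7.53, 7.36 and 7.86 in WT_EC, 8.74, 8.71 and 8.63 in null_EC, 8.55, 8.54 and 8.47 in null_EB and 8.99, 8.83 and 8.97 in ESC. WT_EC was below every other array, by 1.11 against null_EC (SE 0.11, adjusted p = 0.000121), the smallest adjusted p among the imprinted genes of that comparison, and by 1.35 against ESC (adjusted p = 2.47e-06). Its difference of 0.41 between ESC and null_EB (adjusted p = 0.0111) was lost with the housekeeping shift. Asb4, an ankyrin repeat gene, had means of 5.89 to 6.30 and was called in ESC against WT_EC (-0.41, adjusted p = 0.0102; 0.082 with the 6 arrays alone).

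Of the genes listed without a cluster, Nnat and Gatm differed most. Nnat (neuronatin) read 8.79, 8.73 and 8.82 in ESC, 6.92, 7.13 and 7.05 in null_EC, 6.86, 6.80 and 6.97 in null_EB and 7.5, 7.07 and 7.99 in WT_EC, and ESC exceeded null_EC by 1.75 (SE 0.18, adjusted p = 1.05e-05). Gatm, an enzyme of creatine synthesis, ran the other way, with 8.81, 8.5 and 8.81 in ESC, 10.27, 10.23 and 10.13 in null_EC, 10.59, 10.28 and 10.24 in null_EB and 10.17, 11.06 and 9.52 in WT_EC. It was lower in ESC than in null_EC (-1.50, SE 0.30, adjusted p = 0.00142), null_EB (-1.67) and WT_EC (-1.54).

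Plagl1, a zinc finger factor that acts on other imprinted genes, read 8.61, 7.37 and 9.53 in WT_EC, 7.65, 7.49 and 7.63 in null_EC, 7.57, 7.27 and 7.44 in null_EB and 8.23, 8.40 and 8.33 in ESC. ESC lay above both null groups without overlap, while WT_EC overlapped every other group. It was not called in the pooled fit, and without the WT_EC arrays ESC exceeded null_EC by 0.73 with an adjusted p of 2.8e-06 and null_EB by 0.89 with 4e-07. H13, a signal peptide peptidase, had a mean of 10.84 in ESC and 11.71 to 11.82 elsewhere, a difference of -0.97 from null_EC (adjusted p = 4.83e-05). Impact, a regulator of translation, had means of 12.24 and 12.36 in null_EC and null_EB and of 11.50 and 11.49 in WT_EC and ESC. It was higher in null_EC than in WT_EC by 0.74 (adjusted p = 0.00063), with no overlap of the arrays, and differed by -0.75 in ESC against null_EC (adjusted p = 6.73e-05). Nap1l5, a nucleosome assembly protein, had means of 6.61 to 7.08, and its call in ESC against WT_EC (-0.47, adjusted p = 0.0251) was lost without any of the ESC arrays (adjusted p up to 0.067). Rasgrf1, a Ras exchange factor, had means of 6.13 to 6.51 and was not called in the pooled fit. Without the WT_EC arrays it differed by -0.28 in ESC against null_EC (adjusted p = 0.00088 in limma) and by -0.35 against null_EB (adjusted p = 0.000125).

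**Figure D4:**
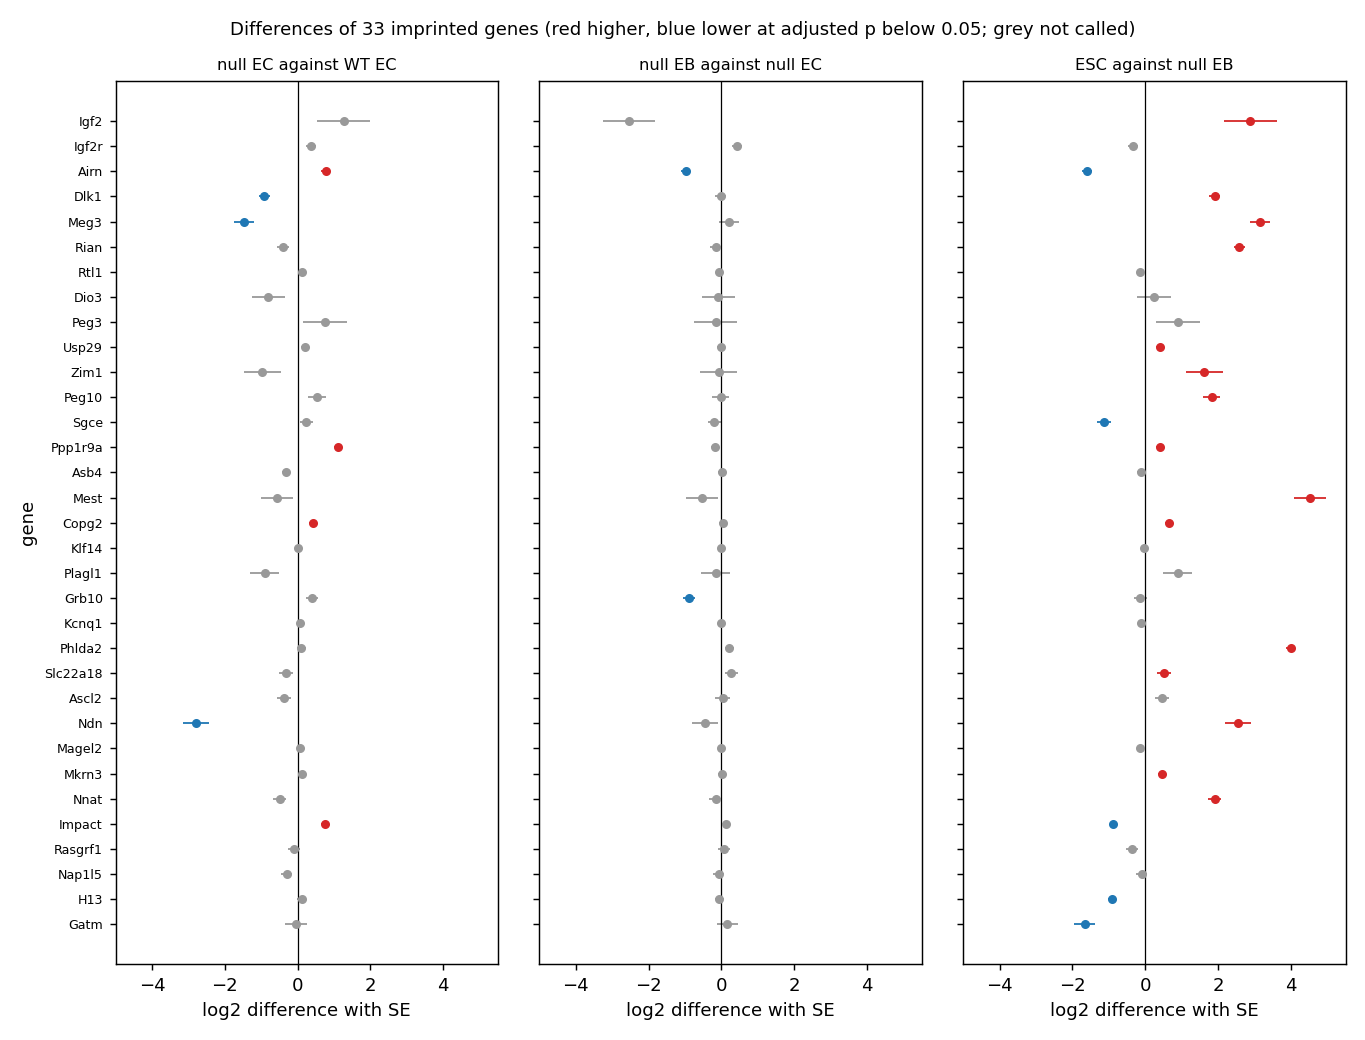
Log2 differences with SE of the 33 imprinted genes (rows) in 3 of the comparisons, with genes called higher in red, called lower in blue and not called in grey. Few genes are coloured in null_EC against WT_EC (4 red, 3 blue) and in null_EB against null_EC (2 blue), where Igf2 has the largest difference but is grey, and 20 are coloured in ESC against null_EB.

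The comparison of null_EC with WT_EC depended on which WT_EC array was in it. Within WT_EC, 10 of the 33 imprinted genes (30.3%) spanned at least 1 log2 unit, where 13.4% of all genes did, and within each other group 0 of the 33 did. Of the 10, 8 were highest on WT_EC 3, the WT_EC array with the highest medians of the immune, fibroblast, endothelial and mesothelium markers and with the largest housekeeping shift (-0.37), and Igf2 and Gatm were highest on WT_EC 2. The share of all genes called was not computed with arrays left out, so the counts that follow cannot be set against all genes. Without WT_EC 2, 6 genes were called higher and 10 lower in null_EC. Igf2 and Igf2r (0.55) joined those higher, and Rian (-0.51), Dio3 (-1.37), Asb4 (-0.47), Plagl1 (-1.48), Slc22a18 (-0.58), Ascl2 (-0.57) and Nnat (-0.71) joined those lower. Without WT_EC 3, Peg10 (0.87) and Grb10 (0.64) joined those higher, and without WT_EC 1 Rian joined those lower (-0.53). The calls of Airn, Ppp1r9a, Impact, Ndn, Meg3 and Dlk1 remained whichever array of the pair was left out.

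By the parental copy that textbooks give as the active one, 15 of the measured genes are maternally and 18 paternally expressed. ESC against null_EC had 6 higher and 3 lower of the 15 and 7 higher and 3 lower of the 18. Against null_EB the counts were 7 and 2 of the 15 and 8 and 3 of the 18, and against WT_EC 6 and 4, and 6 and 3. Of all genes, 22.9% were called higher and 25.1% lower, 21.8% and 23%, and 25.4% and 21.7% in the same order. The higher and lower genes were thus found in both sets, and no difference between the sets was tested.

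Among 33 further imprinted genes kept as a second list, 8 were higher and 11 lower in ESC than in null_EC, 7 and 9 against null_EB, and 8 and 8 against WT_EC. As shares these are 24.2% and 33.3%, 21.2% and 27.3%, and 24.2% and 24.2%, to be read against the shares of all genes given above. Slc38a4, an amino acid transporter of the placenta, read 12.20, 12.22 and 12.15 in ESC, 6.95, 7.05 and 7.05 in null_EC, 6.83, 6.83 and 6.67 in null_EB, and 7.70, 6.64 and 9.43 in WT_EC, highest on WT_EC 3 within its group as Mest was. Its difference of ESC from null_EC was 5.17 (SE 0.50, adjusted p = 7e-06), followed by Zdbf2 at 4.25 and Sfmbt2 at 3.23. Lower in ESC were Dcn, the matrix protein decorin (-2.54), Pon3 (-2.45), Pon2 (-2.30) and Osbpl5 (-1.45). In null_EC against WT_EC the second list had 2 higher and 2 lower, with Atp10a at -1.13 (adjusted p = 2.2e-05). In null_EB against null_EC it had 0 higher and 1 lower, Ddc at -1.77 (adjusted p = 0.017), and 4 and 4 at an unadjusted p under 0.05 in limma. The housekeeping shift turned the counts to 0 and 4 for null_EC against WT_EC, and to 7 and 16, 5 and 20, and 3 and 20 for ESC against null_EC, null_EB and WT_EC, where 43.7%, 56.1% and 60.4% of all genes were lower.

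The 24 genes listed for a link to the imprinting mark were mostly higher in ESC. Of them, 17 were called higher and 1 lower than null_EC, 16 and 2 against null_EB, and 18 and 1 against WT_EC. As shares these are 70.8% and 4.17%, 66.7% and 8.33%, and 75% and 4.17%. Of all genes, 22.9% and 25.1%, 21.8% and 23%, and 25.4% and 21.7% were called. Tet1, which oxidizes methylated cytosine, read 12.45, 12.50 and 12.52 in ESC and 7.11 to 7.35 on all other arrays, a difference of 5.37 from null_EC (adjusted p = 2.6e-12). Hells, Dnmt3l and Uhrf1 followed at 4.47, 3.94 and 3.29, and Tet3, a relative of Tet1, was lower at -1.79. In null_EC against WT_EC 4 were lower, Hells (-1.30, adjusted p = 0.0001), Uhrf1 (-1.22, adjusted p = 0.0053), Dnmt1 (-0.83) and Ezh2 (-0.72), all also linked to DNA replication and growth of cells. Zfp57 (0.73, adjusted p = 0.030) and Tet3 (0.42) were higher, and with the housekeeping shift 0 of the 24 were higher and 5 lower. Without the shift 8.33% of the list were higher and 16.7% lower, beside 8.12% and 5% of all genes. With it, 2.17% of all genes were higher and 7.46% lower. In null_EB against null_EC Hells (1.07, adjusted p = 0.00092), Ezh2 (0.49) and Setdb1 (0.46) were higher and 0 were lower (7 and 1 at an unadjusted p under 0.05), and 5 and 0 with the housekeeping shift. That is 12.5% higher without the shift, where 2.9% of all genes were higher and 2.5% lower. With the shift 4.03% of all genes were higher and 1.10% lower. Of 7 trophoblast markers, cells of the placenta where many of these genes act, 2 were higher and 1 lower in ESC than in null_EC, and neither comparison among the other groups called any of the 7 in limma, with 0 higher and 1 lower in each at an unadjusted p under 0.05. The shares in ESC against null_EC were 28.6% and 14.3%, beside 22.9% and 25.1% of all genes.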

How the data were processed

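The authors deposited log2 signals for each probe set on each array, made with Affymetrix Expression Console 1.2.1 and RMA (background correction, quantile normalization, median polish), per the submitters' processing notes. The array named in the labels' protocol is a human one, but the identifiers in the table are those of the mouse array, whose gene table was used. Of 35556 probe sets, 21789 had 1 gene symbol, 1621 several and 12146 none. A gene was represented by its brightest probe set over the 12 arrays, which left 19938 genes. With limma 3.58.1 (R 4.3.3), group means were fitted across the 12 arrays together. Each comparison's p-values over the 19938 genes were Benjamini-Hochberg adjusted, and an adjusted p below 0.05 made a call. The procedure was tested on simulated data in which every group had the same spread. That test does not cover the wider spread of the WT_EC arrays. Every measured gene of the list is named, with values on all arrays where group means span at least 1 log2 unit. Of each further list, up to 4 called genes per direction with the largest difference may be named. The genes, lists and rules were chosen with earlier results of these data known. Alternatives were the mean of a gene's probe sets, leaving out dim genes (those without 3 arrays at a log2 signal of 6 or more), the 6 arrays of a comparison alone, array weights, trend with robust moderation, arrays shifted to equal medians of 12 housekeeping genes, a replicate block, and each array left out. A fit without the WT_EC arrays was added after the data were seen. The labels do not say whether replicate numbers pair the samples, and the main fit used no pairing. Same-numbered deviations correlated at -0.155 to 0.225. Differently numbered arrays were not compared, so this cannot settle whether samples were paired.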

Additional observations from a re-analysis of the deposited data

How the results depend on the processing

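Over all alternatives that were run, 2058 of 2244 values of single imprinted genes stayed on their side of the threshold, 54 lost a call, 132 gained one and 0 called values changed sign. The mean of probe sets, the filter on dim genes, and trend with robust moderation left all 10 counts of higher and lower genes within 1.5 times. For the first 2 of these settings that was largely fixed in advance. Each of the 33 genes had a single probe set and passed the filter, so their own values could not change. The values from these settings are also part of the 2244. With the 6 arrays of a comparison alone, null_EC against WT_EC gave 2 higher and 1 lower, null_EB against null_EC 2 higher and 6 lower, and ESC against WT_EC 4 lower. Array weights gave 10 lower in null_EC against WT_EC, 5 higher and 10 lower in null_EB against null_EC, and 11 lower in ESC against null_EC and also in ESC against null_EB. The housekeeping shift gave 2 higher in null_EC against WT_EC, 1 lower in null_EB against null_EC, 11 lower in ESC against null_EC, 9 higher and 13 lower in ESC against null_EB, and 14 lower in ESC against WT_EC. Without the WT_EC arrays, null_EB against null_EC gave 2 higher and 5 lower, ESC against null_EC 10 lower and ESC against null_EB 8 lower. Leaving out 1 array gave 3 to 10 lower in null_EC against WT_EC and 1 to 2 lower in null_EB against null_EC. The causes of these changes were not tested. Shares of all genes called were computed only for the main fit and the housekeeping shift. The other counts here therefore do not show whether imprinted genes changed more than all genes. The replicate block gave 3 higher and 3 lower genes in null_EC against WT_EC, where Copg2 lost its call, 0 and 2 in null_EB against null_EC, 13 and 6 in ESC against null_EC, 15 and 5 in ESC against null_EB, and 13 and 7 in ESC against WT_EC, where Slc22a18 gained one. It changed no other call of these genes. No detection calls were used here, so genes near the low end of the signal have no set limit of detection, and 3 arrays per group limit the precision.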
